A study of Drosophila melanogaster with 10 samples.

Results

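The genes described here are the 8 that hold the spindle checkpoint and carry out the release of anaphase in Drosophila melanogaster: BubR1, Bub1, Bub3, mad2, fzy, pim, thr and Sse. They were chosen by name for their known function, but with earlier results of these data known. All 8 were found among the 15259 genes with a count in the deposited RNA-seq table. Bub1 (FBgn0031696), fzy (FBgn0001086) and pim (FBgn0003087) lie on chromosome arm 2L, mad2 (FBgn0035640) and Sse (FBgn0035627) on 3L, Bub3 (FBgn0025457) on 3R, and BubR1 (FBgn0263855) and thr (FBgn0003701) on 2R. Libraries of total RNA came from flight muscle and from larval notum of animals labelled Rbf-KD, in which the retinoblastoma family gene Rbf was the target of an RNA hairpin, and of animals labelled WT. The Rbf-KD animals carried P{UAS-Rbf-RNAi[GD:10696]}, whereas the WT animals carried a hairpin against mCherry inserted at attP2. Every animal, WT included, also carried UAS-Dicer2 and a Mef2-Gal4 driver, which is active in the muscle lineage. Flight muscle was taken from pharate animals at 96 h after puparium formation, with 2 Rbf-KD and 2 WT libraries. The notum was cut from wing discs of wandering third-instar larvae, with 3 Rbf-KD and 3 WT libraries, all animals being kept at 25 °C. It holds the adult muscle precursors together with disc epithelium, which lies outside the lineage of the driver. The hairpins came from different stocks, so that genetic background and genotype cannot be told apart. The labels do not give the number of animals in a library or say that replicates came from separate animals, and the p-values therefore measure only the spread between these libraries.

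Before chromosomes separate, kinetochores without microtubules produce an inhibitor of the anaphase-promoting complex (APC/C), built from BubR1, Bub3 and Mad2 around Fizzy, the Cdc20 of flies. Once every kinetochore is attached, Fizzy is set free and the APC/C marks Pimples, the securin, for destruction. Separase, which flies make as Sse with its partner the thr product, then cuts cohesin and the sister chromatids part. In the fly these genes are used by dividing cells such as the muscle precursors of the wing disc, whereas flight muscle fibres form from cells that have left the cell cycle.

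Counts summed over genes ranged between 53864590 and 73408335 in the flight muscle libraries and between 42097050 and 55401980 in the notum libraries. Rbf itself had 1210 and 1454 counts in the Rbf-KD muscle libraries, against 187 and 203 in the WT muscle libraries, and its log2 fold change was 1.48 (SE 0.17, adjusted p = 0.00229 in edgeR). In notum its log2 fold change was -0.25 (SE 0.18, adjusted p = 1.00). The muscle value goes against the label, so that every direction given below is that of the libraries labelled Rbf-KD. Reads of the hairpin itself cannot be separated from those of Rbf in a count table. Their part in the Rbf counts of either tissue was not tested. The 7 flight muscle markers summed to between 79236 and 85636 CPM (counts per 1000000 of the library total) in Rbf-KD muscle and between 144236 and 158179 in WT muscle. Against this, they summed to between 143 and 244 CPM in notum, where salm alone made up 103 to 229 CPM. The 5 markers of adult muscle precursors were all detected in the notum libraries, at 265 to 425 CPM together, beside 1065 to 1478 CPM for the 6 markers of disc epithelium. A principal component analysis of the notum placed both libraries of replicate 1 on one side of its first axis, at -48.31 for Rbf-KD and -43.97 for WT, with the other 4 between 5.99 and 31.75.

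In flight muscle, BubR1, Bub1, mad2 and thr were higher in the libraries labelled Rbf-KD, by log2 fold changes between 0.80 and 5.29. Of the 7 genes tested there, 4 were called higher at an edgeR adjusted p under 0.05. The background was 19.4% of the 10930 genes tested called higher and 20.3% called lower. Bub3, fzy and Sse did not pass, and pim had too few counts to be tested. BubR1, thr and Sse entered the test only through their counts in the Rbf-KD libraries, so the number called is set in part by the filter and is not read against the background. Fold changes are after TMM scaling, which makes most genes equal between libraries, with factors between 1.43 and 1.51 for Rbf-KD muscle and between 0.667 and 0.695 for WT muscle. Scaling to library totals adds 1.11 to the median log2 fold change of all genes in this comparison. Both scalings are given below where they change the call of one of the 8 genes.

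**Figure D1:**
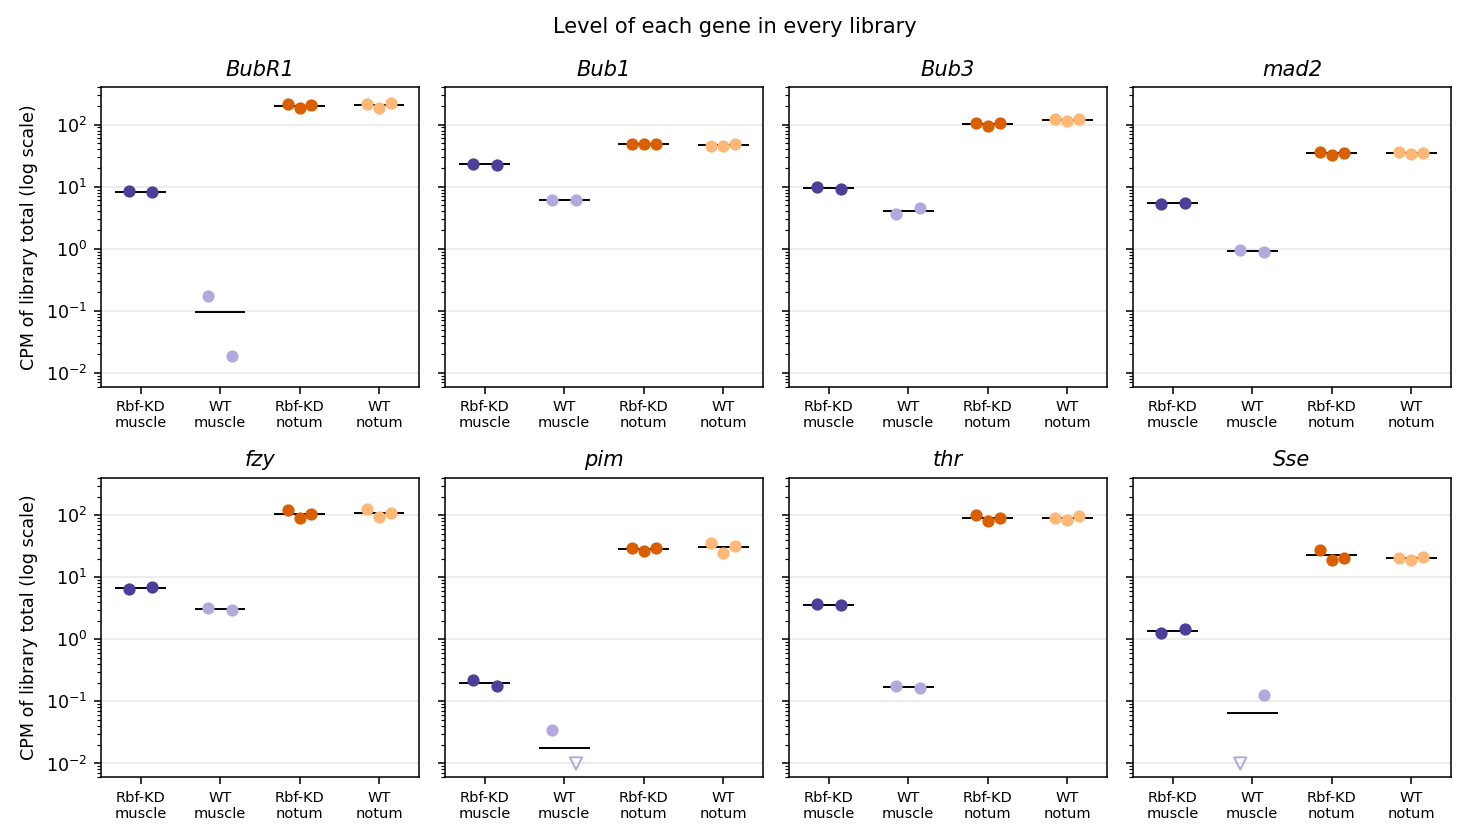
Level of each of the 8 genes in every library, in CPM of the library total on a log scale, with 1 point per library and a bar at each group's mean; open triangles at the foot mark libraries with 0 counts. All 8 genes are higher in Rbf-KD than in WT muscle on this scale, and notum libraries of either genotype lie above every muscle library.

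BubR1, the checkpoint protein that holds Fizzy within the inhibitor, had 452 and 603 counts in Rbf-KD muscle, against 10 and 1 in WT muscle. The groups lay far apart, and the second WT library was under the floor of 3 counts used here for detection. Its log2 fold change was 5.29 (SE 0.71, adjusted p = 0.00572), and the ratio of the pooled scaled counts was 39.1, with a 95% counting interval of 21.8 to 78.5. Such intervals cover counting error only, since reads are not independent molecules. The BubR1 call was lost without Rbf-KD replicate 1 (5.33, adjusted p = 0.0505) or without Rbf-KD replicate 2 (5.27, adjusted p = 0.0502). The size of the change rests on the WT libraries, being 7.58 without WT replicate 1 (adjusted p = 0.0126) and 4.47 without WT replicate 2 (adjusted p = 0.0142).

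Bub1, the kinetochore kinase, had 1265 and 1629 counts in Rbf-KD muscle and 352 and 327 counts in WT muscle. It was the most strongly counted of the 8 genes in each of the muscle libraries, and its groups did not overlap. The TMM-scaled level was 15.5 ± 0.0188 CPM in Rbf-KD muscle and 8.96 ± 0.154 CPM in WT muscle (SD, n = 2 each). The log2 fold change was 0.80 (SE 0.13, adjusted p = 0.00781).

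Bub3, the WD40 adaptor that brings Bub1 and BubR1 to the kinetochore, had 523 and 673 counts in Rbf-KD muscle and 206 and 247 counts in WT muscle. After TMM scaling the level was 6.43 ± 0.0111 CPM in Rbf-KD muscle and 6.01 ± 1.18 CPM in WT muscle (SD, n = 2 each). That gap was smaller than the spread between the WT libraries, and the log2 fold change of 0.10 (95% interval -0.40 to 0.59) did not pass the test (adjusted p = 0.721). With library totals the same counts gave 1.21 (SE 0.19, adjusted p = 0.00401), so that whether Bub3 differed rests on the scaling.

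mad2 encodes the protein that is loaded onto Fizzy at unattached kinetochores. It had 285 and 401 counts in Rbf-KD muscle, against 54 and 48 in WT muscle. The log2 fold change was 1.45 (SE 0.23, adjusted p = 0.00684), between those of Bub1 and BubR1.

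fzy, the target of the checkpoint and activator of the APC/C, had 354 and 518 counts in Rbf-KD muscle and 182 and 163 counts in WT muscle. On TMM scaling this was 4.65 ± 0.414 CPM in Rbf-KD muscle and 4.55 ± 0.0394 CPM in WT muscle (SD, n = 2 each), with a log2 fold change of 0.03 (95% interval -0.43 to 0.49, adjusted p = 0.902). With library totals it was 1.14 (SE 0.18, adjusted p = 0.00405).

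The genes of the separase complex were the scarcest of the set in WT muscle beside BubR1. thr, which encodes the regulatory partner of separase in flies, had 199 and 262 counts in Rbf-KD muscle, against 10 and 9 in WT muscle. Its log2 fold change was 3.29 (SE 0.33, adjusted p = 0.00167), and its pooled ratio was 9.89 (95% counting interval 6.26 to 16.6).

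Sse, the protease that cuts cohesin, had 68 and 107 counts in Rbf-KD muscle and 0 and 7 counts in WT muscle. The groups did not overlap, but the WT libraries differed from each other. The log2 fold change of 3.28 (SE 1.07, 95% interval 0.49 to 6.06) missed the threshold with an adjusted p of 0.0668. It passed in DESeq2 (adjusted p = 0.0314), in limma-voom (0.0400) and in the fit of all 10 libraries (0.00315), and also with library totals (4.38, adjusted p = 0.0174). It did not pass without Rbf-KD replicate 1 (0.182), without Rbf-KD replicate 2 (0.199), without WT replicate 1 (2.24, adjusted p = 0.0594) or with the replicate block (0.0855). Without WT replicate 2, which held all 7 WT counts, the remaining WT library was at 0 and the adjusted p was 0.0206.

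pim, the securin that keeps separase inactive, had 12 and 13 counts in Rbf-KD muscle and 2 and 0 counts in WT muscle. It was too low to be tested in the muscle libraries alone. The pooled ratio was 5.09 on TMM scaling with a 95% counting interval of 1.27 to 44.4, and 10.9 with library totals (2.73 to 95.2). Securin reads were thus scarce in muscle of either genotype. thr had more reads in Rbf-KD muscle, but its transcript is also longer (4358 bases, against 978 for pim). Per kilobase of transcript the levels there were 0.833 CPM for thr and 0.204 CPM for pim. The table lists 2 pim transcripts with nearly the same counts, 1355 and 1325 in the first Rbf-KD notum library, and the higher one stands for the gene.

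**Figure D2:**
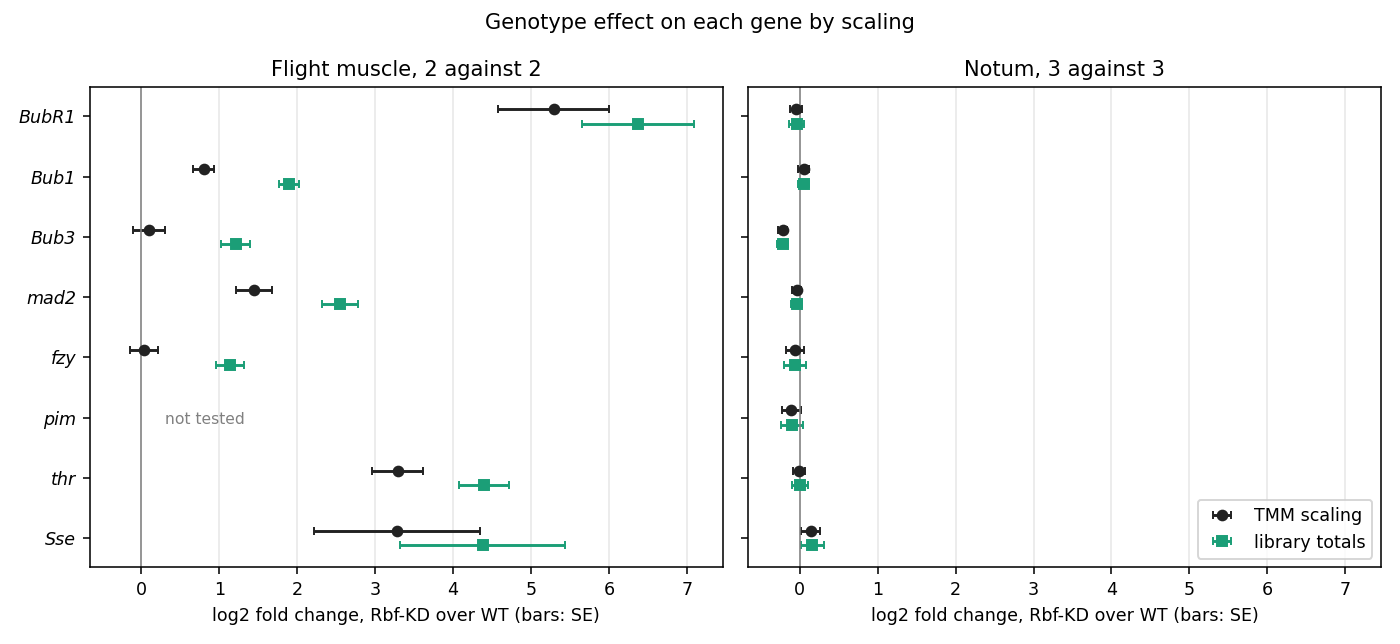
Log2 fold change of each gene, Rbf-KD over WT, in flight muscle (left) and notum (right), with bars of 1 SE; black circles are TMM scaling and green squares library totals. In muscle BubR1, thr and Sse lie furthest to the right, and Bub3 and fzy move off 0 only with library totals; in notum all values lie between -0.22 and 0.16.

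Some of these counts may include reads of a neighbour on the other strand. Although the libraries were stranded, the counting appears not to have used strand. Genes lying inside an exon of an opposite-strand host gene held about as many reads per base as the host's whole transcript did. The median ratio was 0.938 over 30 such pairs, against 1.24 over 87 pairs on the same strand. Reads of the exon itself were not available. fzy shares 62 bases with cact, an inhibitor of the Dorsal pathway, and mad2 shares 94 bases with kri. Bub3 shares 91 bases with ppk19 and thr shares 99 bases with CG14490, whereas BubR1, Bub1, pim and Sse overlapped no gene on the other strand.

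If the neighbour's reads are spread evenly along its transcript, they would make up 54.2% and 51.7% of the fzy count in Rbf-KD muscle and 67.2% and 72.5% of it in WT muscle. What would then remain for fzy is 162 and 250 counts in Rbf-KD muscle, against 60.0 and 45.0 in WT muscle. The direction of fzy in muscle is therefore less certain than that of the genes with no such neighbour. With the estimate subtracted, an alternative chosen after seeing the data, the fzy log2 fold change was 0.67 (SE 0.28, adjusted p = 0.117). For mad2 the same estimate was 17.7% and 17.0% of the count in Rbf-KD muscle and 50.3% and 47.4% in WT muscle, and the log2 fold change without it was 2.14 (SE 0.27, adjusted p = 0.00326). The neighbours' own log2 fold changes in muscle were -0.37 for cact (adjusted p = 0.0647) and -0.05 for kri (adjusted p = 0.818). The estimate took at most 1.35% of Bub3, and it took 0.560% and 1.12% of thr in Rbf-KD muscle and 12.5% and 29.4% of thr in WT muscle.

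**Figure D3:**
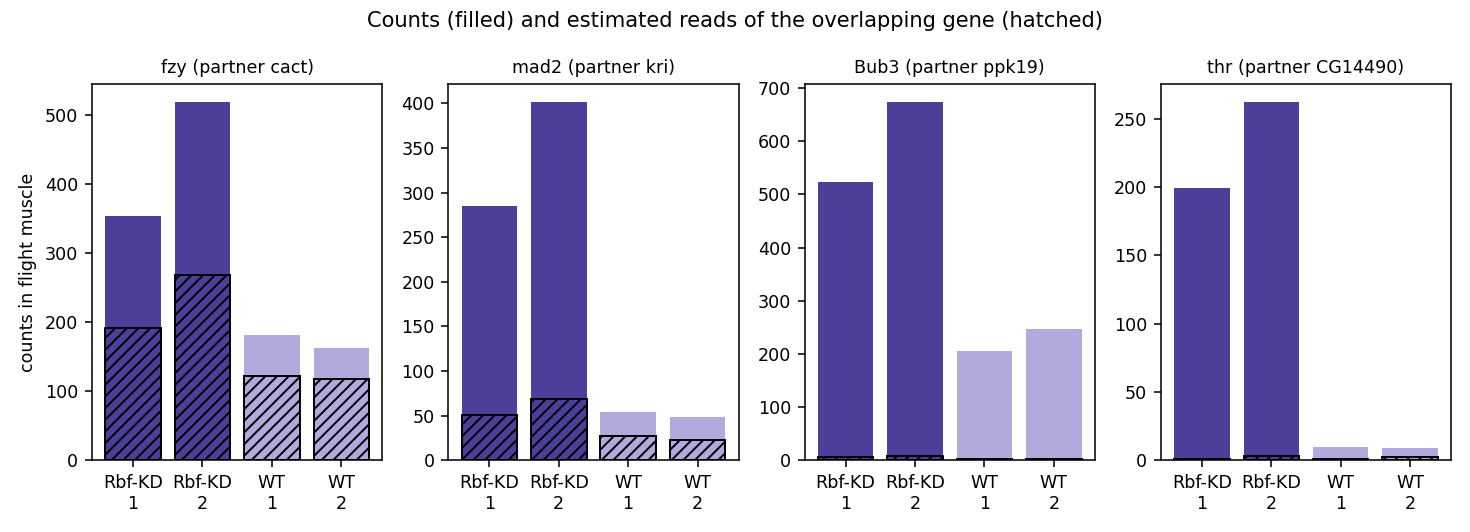
Counts of fzy, mad2, Bub3 and thr in the 4 flight muscle libraries (filled bars, darker for Rbf-KD) and the part that even coverage of the overlapping gene would give (hatched). The hatched part is over 50% of every fzy bar, and small beside the whole for Bub3.

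Markers of other cells were summed on library totals, a scale on which the median gene is itself higher in Rbf-KD muscle. The 6 fat body markers, all detected, summed to between 4073 and 4601 CPM in Rbf-KD muscle and between 165 and 202 CPM in WT muscle. The 5 hemocyte markers, all detected, summed to between 771 and 774 CPM in Rbf-KD muscle and between 205 and 206 CPM in WT muscle. The 5 precursor markers, all detected, summed to between 99.4 and 100 CPM in Rbf-KD muscle and between 50.2 and 54.4 CPM in WT muscle. Nearly all of these sums came from zfh1, vg and ct. Him stood at 0.687 and 0.586 CPM in Rbf-KD muscle and 0.0349 and 0.0185 CPM in WT muscle. For twi there were 14 and 5 counts in Rbf-KD muscle and 0 and 2 counts in WT muscle. The 6 disc epithelium markers, all detected, summed to 164 to 189 CPM in Rbf-KD muscle and 103 to 116 CPM in WT muscle. Most of these sums came from hth alone, at 161 and 153 CPM in Rbf-KD muscle and 108 and 97.7 CPM in WT muscle. The 4 tracheal markers, all detected, summed to 233 to 240 CPM in Rbf-KD muscle and 226 to 236 CPM in WT muscle. Of the 3 germline markers, osk had 1 and 5 counts and bam 2 and 7 counts in Rbf-KD muscle, and both were at 0 in WT muscle. The third, bru1, is also a flight muscle gene and carried that list's sum, 1044 to 1081 CPM in Rbf-KD muscle and 616 to 639 CPM in WT muscle. Gene by gene on TMM scaling, all 6 fat body markers were higher in Rbf-KD muscle, as were 1 of 5 hemocyte markers and 2 of the 4 precursor markers tested, with vg lower (-0.74, adjusted p = 0.00586). On that scaling 2 of 6 disc epithelium markers and all 4 tracheal markers were lower. Over all genes tested, 19.4% were called higher and 20.3% lower. The precursor marker Him entered the test only through its Rbf-KD counts (37 and 43, against 2 and 1 in WT muscle). With library totals 6 fat body, 5 hemocyte, 4 precursor and 3 disc epithelium markers were higher and 1 tracheal marker lower. Of all 10930 genes tested, 7449 were then higher and 554 lower. For all but the fat body list the picture thus rests on the scaling. The part of these other cells in the levels of the checkpoint genes was not tested, and in bulk tissue more cells of a type and more RNA per cell cannot be told apart.

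In notum, none of the 8 genes passed the test between the genotypes (0 of 8; 0.156% of the 12203 genes tested were called in either direction). At an unadjusted p under 0.05 there was 1, Bub3, and DESeq2 and limma-voom each called 0. BubR1 had 9681, 9528 and 9653 counts in Rbf-KD notum and 11976, 7826 and 9742 counts in WT notum. The TMM-scaled level of BubR1 was 201 ± 10.2 CPM in Rbf-KD notum and 208 ± 11.9 CPM in WT notum (SD, n = 3 each). Its genotypes overlapped, and the 95% interval of its log2 fold change was -0.24 to 0.14.

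Bub3 had the largest difference in notum, at 103 ± 3.58 CPM in Rbf-KD libraries and 120 ± 2.04 CPM in WT libraries (SD, n = 3 each). All Rbf-KD values lay under all WT values, with 99.1 to 106 CPM in Rbf-KD notum and 118 to 122 CPM in WT notum. The log2 fold change was -0.22 (SE 0.06, 95% interval -0.37 to -0.08), with an adjusted p of 0.660 over all genes. The other genes differed less. Bub1 stood at 48.2 ± 1.70 CPM in Rbf-KD notum and 46.7 ± 2.20 CPM in WT notum, and mad2 at 34.3 ± 0.664 CPM in Rbf-KD notum and 35.3 ± 0.558 CPM in WT notum (SD, n = 3 each). fzy stood at 105 ± 10.8 CPM in Rbf-KD notum and 109 ± 13.6 CPM in WT notum. Among the separase genes, thr stood at 89.9 ± 6.40 CPM in Rbf-KD notum and 90.5 ± 4.52 CPM in WT notum, and Sse at 22.5 ± 3.70 CPM in Rbf-KD notum and 20.4 ± 0.578 CPM in WT notum. pim, the securin, stood at 28.7 ± 1.26 CPM in Rbf-KD notum and 30.9 ± 4.83 CPM in WT notum. The gap between the means was smaller than the SD of at least 1 genotype for each of these genes but mad2. For Bub1 the interval was -0.12 to 0.21, for mad2 -0.19 to 0.10 and for thr -0.20 to 0.18. It was wider for fzy (-0.34 to 0.22), pim (-0.40 to 0.18) and Sse (-0.15 to 0.43). Apart from Bub3, each of these intervals included 0.

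The genotype effect measured in bulk tissue differed between the tissues for 6 of the 8 genes. Notum libraries also held disc epithelium, which lies outside the lineage of the driver, so effects per cell were not compared. In the fit of all 10 libraries the effect in flight muscle was higher than in notum for BubR1, Bub1, mad2, pim, thr and Sse. Over all 13407 genes tested, 17.2% were called higher and 13.1% lower in this way. The difference was 5.36 for BubR1 (SE 0.44, adjusted p = 4.63e-05), 3.34 for thr (SE 0.17, adjusted p = 4.01e-06) and 3.20 for Sse (SE 0.74, adjusted p = 0.0110). It was 1.52 for mad2 (SE 0.14, adjusted p = 6.87e-05) and 0.78 for Bub1 (SE 0.13, adjusted p = 0.00185). For pim it was 2.45 (SE 0.67, adjusted p = 0.0231), a call that was lost in DESeq2 (adjusted p = 0.0820), in limma-voom (0.167) and without both notum replicate 1 libraries (0.0533). It was also lost without Rbf-KD muscle replicate 1 (0.0651), WT muscle replicate 2 (0.205), Rbf-KD notum replicate 2 (0.0512) or WT notum replicate 3 (0.0507). Bub3 (0.35, adjusted p = 0.106; 0.0136 without WT muscle replicate 2) and fzy (0.12, adjusted p = 0.660) did not pass. With the cact estimate subtracted the fzy difference was 0.76 (SE 0.21, adjusted p = 0.0266). Library totals raised the median difference of all genes by 1.07. With them all 8 passed, beside 6989 higher and 365 lower of all 13407 genes tested, which is not read as a result about the set.

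Between the stages, 7 of the 8 genes were lower in WT flight muscle than in WT notum, by log2 fold changes between -8.28 and -2.12. Bub1 was the exception. Of all 13407 genes tested, 43.4% were called lower and 33.3% higher. BubR1 fell by 8.28 on the log2 scale (SE 0.38, adjusted p = 9.00e-08) and pim fell by 7.95 (SE 0.43, adjusted p = 2.50e-07). Their order is not resolved, since the pooled scaled ratio of WT muscle over WT notum was 0.00321 for BubR1 (95% counting interval 0.00160 to 0.00575) and 0.00387 for pim (4.69e-04 to 0.0140). Securin had 2 and 0 counts in WT muscle, against 1993, 1046 and 1415 in WT notum. thr fell by 6.29 (SE 0.14, adjusted p = 1.63e-09) and Sse by 5.56 (SE 0.60, adjusted p = 3.02e-05). These SE are derived from the F test. With so few counts of these genes in WT muscle, they can be smaller than the counting error alone.

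The other checkpoint genes fell less. mad2 fell by 2.51 (SE 0.11), fzy by 2.38 (SE 0.13) and Bub3 by 2.12 (SE 0.11). With the neighbours' estimate subtracted the change was -4.05 for fzy and -3.32 for mad2. Bub1 had 352 and 327 counts in WT muscle, against 2474, 1937 and 2169 in WT notum. On TMM scaling its log2 fold change was -0.18 (95% interval -0.39 to 0.03, adjusted p = 0.100), but -2.93 with library totals (adjusted p = 3.31e-09) and -0.28 with no filter on low counts (adjusted p = 0.0203). Library totals are a scaling that lowers the median of all genes by 2.75. The drop of BubR1 relative to Bub1 needs no scaling. For every 100 Bub1 counts a library held 2.84 and 0.306 BubR1 counts in WT muscle, against 484, 404 and 449 in WT notum.

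In the libraries labelled Rbf-KD, 7 of the 8 genes were likewise lower in muscle than in notum (39.2% of all genes called lower and 34.9% higher). pim fell by 5.50 (SE 0.31), thr by 2.95 (SE 0.10) and BubR1 by 2.92 (SE 0.24). Sse fell by 2.36 (SE 0.42). The log2 fold change was -2.26 for fzy and -1.77 for Bub3, and mad2 fell by 1.00. With the neighbours' estimate subtracted they were -3.29 for fzy and -1.11 for mad2. Bub1 was higher in muscle on TMM scaling (log2 fold change 0.60, SE 0.09, adjusted p = 2.62e-04) but lower with library totals (-1.08, adjusted p = 1.82e-06), so its direction rests on the scaling. There were 35.7 and 37.0 BubR1 counts for every 100 Bub1 counts in Rbf-KD muscle and 446, 381 and 424 in Rbf-KD notum. The WT muscle libraries enter both the stage and the genotype comparisons, which are therefore not independent of each other.

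The makeup of the set also differed between tissues and, in muscle, between genotypes. Per kilobase of the counted transcript, the order in Rbf-KD muscle was Bub3 (7.64 CPM per kb), mad2 (6.57), Bub1 (5.99), fzy (3.41), BubR1 (1.79), thr (0.833), Sse (0.625) and pim (0.204), with no overlap between neighbours. In WT muscle Bub3 led (3.30 CPM per kb), ahead of Bub1 (1.60) and fzy (1.55), whose ranges overlapped, and mad2 (1.12). The last 4 in WT muscle, thr, Sse, BubR1 and pim, lay between 0.0179 and 0.0391 CPM per kb, each overlapping its neighbour. The places of fzy and mad2 depend on the reads shared with their neighbours. With the estimate subtracted, fzy stood at 1.61 CPM per kb in Rbf-KD muscle, below BubR1, and at 0.471 in WT muscle, below mad2 (0.572). mad2 then stood at 5.43 CPM per kb in Rbf-KD muscle, below Bub1. In notum Bub3 also led, with 83.5 CPM per kb in Rbf-KD and 97.0 in WT libraries. Next came fzy, BubR1 and mad2, which overlapped from neighbour to neighbour, then pim, thr, Bub1 and Sse in that order in both genotypes.

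Of the summed per-kilobase level of the set, BubR1 made up 6.66% and 6.60% in Rbf-KD muscle and 0.511% and 0.0501% in WT muscle, against 14.0% to 14.9% in notum. Bub1 made up 22.6% and 21.7% in Rbf-KD muscle and 21.9% and 19.9% in WT muscle, against 3.52% to 4.68% in notum. Bub3 held 28.8% and 27.6% in Rbf-KD muscle and 39.4% and 46.3% in WT muscle. Muscle thus held relatively more Bub1 in either genotype and less BubR1. With the overlap estimate subtracted, Bub1 made up 25.4% and 24.4% in Rbf-KD muscle and 28.4% and 25.1% in WT muscle, and fzy 6.22% and 7.16% in Rbf-KD muscle and 9.23% and 6.59% in WT muscle. pim made up 0.836% and 0.673% in Rbf-KD muscle and 0.484% and 0% in WT muscle, against 8.88% to 11.1% in notum. All 8 genes together had 3158 and 4206 counts in Rbf-KD muscle and 816 and 802 in WT muscle, which is 58.6 and 57.3 CPM in Rbf-KD muscle and 14.2 and 14.8 CPM in WT muscle.

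**Figure D4:**
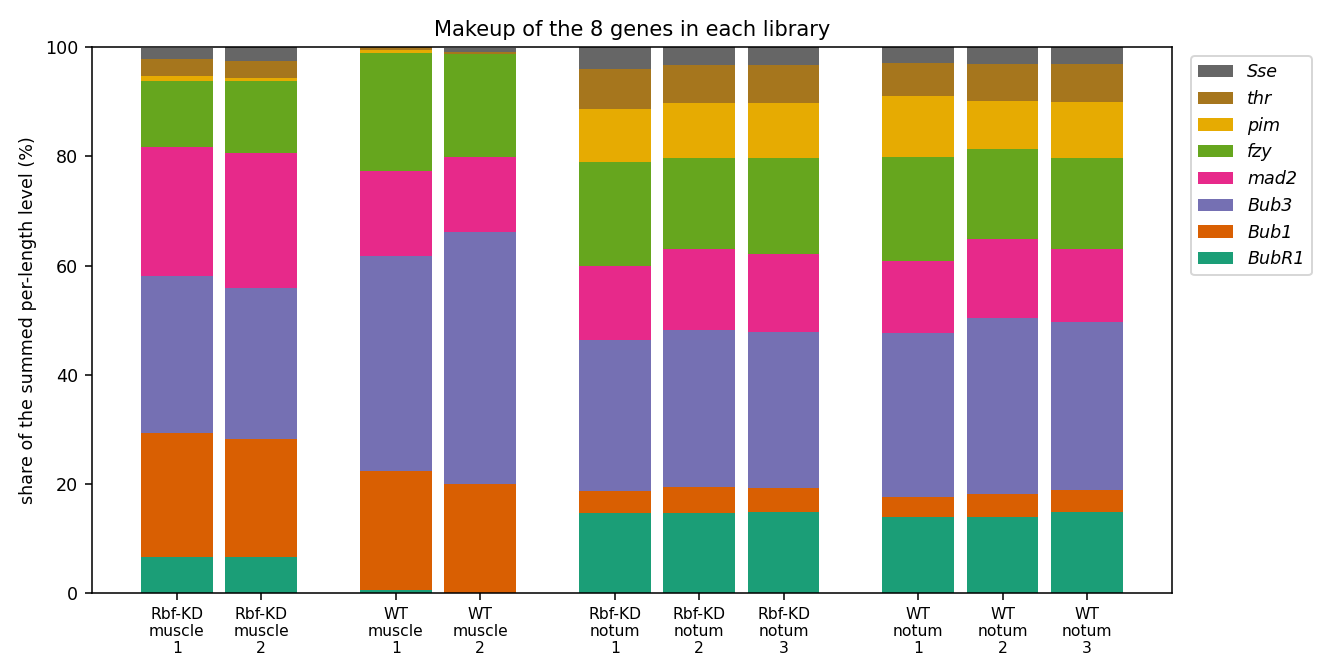
Share of each gene in the summed per-kilobase level of the 8 genes, in percent, with 1 bar per library. The 6 notum bars are alike, while muscle bars hold a larger share of Bub1 and little pim, and WT muscle bars almost no BubR1, thr or Sse.

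The partners of the set were read from 4 lists of genes named for their known function. Among 11 checkpoint partners, 10 could be tested in flight muscle and 9 were higher in Rbf-KD than in WT libraries. The median over those tested was 2.94 (log2 fold change), beside 0.10 for all genes, of which 19.4% were called higher and 20.3% lower. Genes scarce in WT muscle can enter the test only through their Rbf-KD counts. The number called may thus be set in part by the filter and is not read against the background. The largest were borr (5.56, SE 0.51, adjusted p = 0.00148) and Incenp (5.35, SE 0.52, adjusted p = 0.00162), subunits of the chromosomal passenger complex that corrects attachments. Zwilch, of the complex that brings Mad2 to kinetochores, followed with 5.28 (SE 0.86, adjusted p = 0.00702). Zw10, of that same complex, had a log2 fold change of 0.95 (adjusted p = 0.0509; 2.06, adjusted p = 0.00271 with library totals), and Cdk1 had too few counts.

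Of 15 subunits and partners of the APC/C, the ligase that Fizzy activates, 5 were higher and 1 lower in Rbf-KD muscle, with a median of 0.35. Beside the 19.4% higher and 20.3% lower over all genes, these shares are not read as a result about the list. The largest were the scaffold subunit shtd (3.22, SE 0.18, adjusted p = 6.72e-04), APC7 (1.67, SE 0.49, adjusted p = 0.0443) and ida (1.05, SE 0.27, adjusted p = 0.0312). The lower one, lmgA, named for being the only one, had -0.64 (adjusted p = 0.0159) on TMM scaling but 0.47 with library totals. Its exons overlap those of lmgB throughout, so its count is uncertain.

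Among 6 substrates of the APC/C, 3 were higher in Rbf-KD muscle, with a median of 0.91, beside 19.4% of all genes higher and 20.3% lower. These were the mitotic cyclins CycB3 (3.87, SE 0.60, adjusted p = 0.00610) and CycA (3.05, SE 0.69, adjusted p = 0.0200) and the replication licensing inhibitor geminin (0.61, SE 0.15, adjusted p = 0.0267). As for the checkpoint partners, the number may be set in part by the filter and is not read against these shares. Of 12 cohesin genes and their regulators, 6 were higher, with a median of 0.39, beside the same shares of all genes. dmt, a protector of cohesin, led with 2.51 (SE 0.17, adjusted p = 8.29e-04). It was followed by the acetyltransferase eco (1.89, SE 0.16, adjusted p = 0.00122) and the ring subunit SMC3 (1.36, SE 0.15, adjusted p = 0.00234). On the other strand, dmt shares 53 bases with hyd, eco 10 with lark, Zw10 145 with Smyd3 and shtd 8 with CG11655. The neighbours' reads in these counts were not estimated. With library totals 10 checkpoint partners, 15 APC/C genes, 5 substrates and 12 cohesion genes were higher, but so were 7449 of all 10930 genes tested, and these counts are not read as a result about the lists.

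In notum 0 genes of these 4 lists were called between the genotypes by edgeR, DESeq2 or limma-voom, and at an unadjusted p under 0.05 there was 1, among the substrates. The list medians there lay between -0.09 and -0.01. The effect in muscle was higher than in notum for 10 of 11 checkpoint partners, 6 of 15 APC/C genes (1 lower), 4 of 6 substrates and 6 of 12 cohesion genes, beside 17.2% of all genes higher and 13.1% lower. With library totals these were 10, 13, 6 and 12 genes, beside 6989 of all 13407. In WT muscle against WT notum, all 11 checkpoint partners were lower (median -5.85), as were 11 of 15 APC/C genes (3 higher, median -2.15) and all 6 substrates (median -6.90). Of the 12 cohesion genes 7 were lower and 2 higher (median -0.42), beside a median of -0.50 for all genes, of which 43.4% were called lower and 33.3% higher. With library totals every gene of the 4 lists was lower in WT muscle, as were 10235 of all 13407 genes, so that the higher calls rest on TMM scaling. In Rbf-KD muscle against Rbf-KD notum the medians were -3.11 for checkpoint partners, -1.16 for APC/C genes, -5.04 for substrates and -0.21 for cohesion genes, beside -0.23 for all genes. Differences between the lists were not tested.

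Other genes shared the average pattern of the set. The mean centred log2 profile of the 8 genes stood at -0.94 in Rbf-KD muscle and -2.43 in WT muscle, against 1.12 in Rbf-KD notum and 1.13 in WT notum. By the mean absolute log2 difference over the 10 libraries, the closest of 7944 protein-coding genes were SMC5 (0.08), lok (0.08), Nup133 (0.08), AlaRS (0.09) and SmD1 (0.09), where the median gene was at 1.39. They encode a subunit of the Smc5/6 complex, a DNA damage checkpoint kinase, a nuclear pore subunit, an alanyl-tRNA synthetase and a core spliceosomal protein. Among the 8 themselves Sse was nearest to their mean (0.19), and Bub1 (1.45) and BubR1 (1.07) furthest from it.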

How the data were processed

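RNA-seq had been made from ribosome-depleted total RNA with a stranded kit, per the labels' protocols. The submitters' processing notes name the build BDGP5, the aligners TopHat2 2.1.1 and Bowtie2 2.3.2, featureCounts of the Subread package, bcl2fastq 2.17.1.14 and DESeq2 1.14.1, without their settings. The deposited table holds the authors' raw counts for 29173 transcripts in 10 libraries. Transcripts were assigned to genes with a BDGP6 annotation, used for names, chromosome, lengths and overlaps only. Of the transcripts 27011 (92.6%) matched, and the 2162 others held 9.86% to 20.3% of a library. Each gene took its transcript of highest total, and scaling to library totals used the sum of these gene counts.

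Tests were edgeR 4.0.16 (R 4.3.3) quasi-likelihood F tests with robust fitting, TMM scaling, filterByExpr (minimum count 10, minimum total 15) and Benjamini-Hochberg adjustment over all genes tested, called under 0.05. Genotypes were fitted within each tissue, and stages and the difference between tissues in 1 fit of all 10 libraries. limma 3.58.1 and DESeq2 1.42.0 served as alternatives. Code was tested on simulated data. A count of 3, the detection floor, is 0.0409 to 0.0713 CPM. The overlap estimate multiplies the neighbour's reads per base by the bases shared. Likeness used genes of at least 5 CPM on average and a pseudocount of 0.5.

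In notum, deviations of same-numbered libraries correlated at 0.70, 0.62 and 0.22. Rbf-KD replicate 3 correlated more with WT replicate 2 (0.53), so the numbers paired replicate 1 but not clearly replicates 2 and 3. The 8 genes and the lists were chosen with earlier results of these data known. At most 3 called genes of largest fold change were named per list, besides the 5 most alike in pattern. No sequences were analysed here.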

Additional observations from a re-analysis of the deposited data

Results flagged for a closer look

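The Rbf-KD effect differed between flight muscle and notum, by the interaction test of the edgeR fit of all 10 libraries, for 6 of the 8 genes. Over all 13407 genes tested, 17.2% were called higher and 13.1% lower. The log2 effect in flight muscle minus that in notum was 5.36 for BubR1, 0.78 for Bub1, 1.52 for mad2, 2.45 for pim, 3.34 for thr and 3.20 for Sse, at adjusted p between 4.01e-06 and 0.0231. Among the partners named, it was 5.51 for Zwilch, 5.72 for borr and 5.43 for Incenp of the checkpoint, and 3.32 for shtd, 1.11 for ida and 1.72 for APC7 of the APC/C. It was 3.08 for CycA, 3.89 for CycB3 and 0.76 for geminin among the substrates, and 1.45 for SMC3, 2.53 for dmt and 1.92 for eco among the cohesion genes. Rbf, the gene named by the hairpin, had 1.76 (SE 0.29, adjusted p = 0.00188). With 2 or 3 libraries in a group, no library could be tested for standing apart from its group.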

How the results depend on the processing

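Of 602 alternative values of single genes, 559 kept their direction and side of the threshold, 13 came to pass it, 9 no longer did and 21 reversed. Except for Bub1, the reversed values were 0.10 or less from 0. In notum, thr (-0.01) was 0.02 with DESeq2 size factors, in DESeq2, summed over transcripts and in the fit of all 10 libraries, and 0.01 without a filter. With 1 notum library left out it lay between -0.02 and 0.08, BubR1 between -0.08 and 0.03, fzy between -0.10 and 0.06 and pim between -0.17 and 0.03, and pim was 0.02 without both replicate 1 libraries. In muscle, fzy was -0.01 with DESeq2 size factors and in DESeq2, and with 1 library left out it lay between -0.04 and 0.15 and Bub3 between -0.10 and 0.30. Bub1 in Rbf-KD muscle against Rbf-KD notum was -1.08 with library totals. The fzy difference between tissues was -0.04 with DESeq2 size factors and in DESeq2, and between -0.04 and 0.23 with 1 library left out. The causes were not tested.

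Leaving out 1 library gave 0 called genes of the 8 in notum and 3 to 5 in muscle, 7 and 8 between stages in WT and in Rbf-KD, and 5 to 6 for the difference between tissues. With library totals 7 were called higher in muscle, beside 7449 of all 10930 genes tested. Over all genes in notum, 19 calls became 130 in DESeq2, 79 with the replicate block, 40 without both replicate 1 libraries and 1 to 18 with 1 library left out. In muscle the 4348 calls became 8003 with library totals and 2396 to 2991 with 1 library left out, and 7354 genes were called for the difference between tissues with library totals. Pairing by replicate number changed no call of the 8 genes in notum. In muscle the numbers did not pair the samples (r = -0.22). The block there gave 4 of the 8 genes and 3622 genes in all, and the crossed pairing, chosen after seeing the data, 4 and 4177. Depth limits pim, Sse, thr and BubR1 in WT muscle, at 0 to 10 counts.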
